A study of Mus musculus with 6 samples.

Results

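The control epithelium of the mouse dorsal pancreatic bud was followed from embryonic day (E) 12.5 to E14.5 in 2 libraries of sorted cells, out of 6 in the series. Both came from embryos whose only stated genotype is mTmG, a reporter that marks cell membranes red with Tomato, and green with GFP once Cre has acted. No agent was given to either group. The other libraries used for context were the epithelium at the same stages and the mesenchyme at E12.5 from embryos that carry the same reporter with Cre expressed from the Nkx2.5 locus, 1 mutant copy of Pbx2 and a further floxed Pbx gene, and the E12.5 control mesenchyme. Each library was a pool of sorted fractions, and the number of buds or embryos in a pool is not given. The labels do not say which colour the control epithelium was sorted on. Pbx2 stood at 54.5 and 34 CPM (counts scaled to a common library total) in the E12.5 and E14.5 control epithelium and at 49.7 and 47.3 CPM in the epithelium labelled mutant. Pbx2 was thus lower at E12.5 and higher at E14.5 in the library labelled mutant, both by less than 2-fold with 1 library a side. Such levels do not show whether a copy is mutant, and the genotype was not tested. Those 2 libraries are called the labelled mutant pair after their label.

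Between these stages the pancreatic epithelium passes through what is called the secondary transition. Multipotent progenitors give way to tips, whose cells become acinar cells that make digestive enzymes, and to a trunk, whose cells become duct or pass through a Neurog3 stage to endocrine cells. The factor Ptf1a, in a complex with Rbpjl, drives enzyme genes, and Notch, Wnt, FGF and BMP signals between epithelium and surrounding mesenchyme help to set these fates.

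With 1 pool a side there is no replicate check, no test across samples and no p-value. Each ratio compares 2 libraries and carries a 95% interval that covers counting error only. Genes that reached 5 CPM in either library were measured, and a gene was called when its ratio was at least 2-fold with an interval that left out 1. A gene that reached 5 CPM in only 1 library could be called only as higher in that library. Of 12136 measured genes 792 (6.53%) were called higher at E14.5 and 1355 (11.2%) lower. Between the 2 epithelium libraries of E12.5, which differ in genotype and not in stage, the same rule called 1.79% of genes higher and 3.21% lower in the labelled mutant. The split of the stage calls, 36.9% higher and 63.1% lower, depends on the scaling. It was 24.3% higher with plain CPM, which shifted the median over all genes by -0.15 (log2), and 8.82% higher relative to the general epithelial genes, which shifted it by -0.57. Differences below 2-fold in whole groups of genes are therefore relative to the TMM scale, a library scaling that takes the bulk of genes as unchanged. Where a pair of CPM values is given, E12.5 comes first. The 2 libraries held 20276045 counts (E12.5) and 15513358 counts (E14.5) on genes, within the 14032569 to 20276045 of the series. The deposited table of the E12.5 control library is named in another form and with an earlier date than the rest, so that stage and any change of run cannot be told apart. In such pools, fewer cells of a type and less RNA per cell cannot be told apart.

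**Figure D1:**
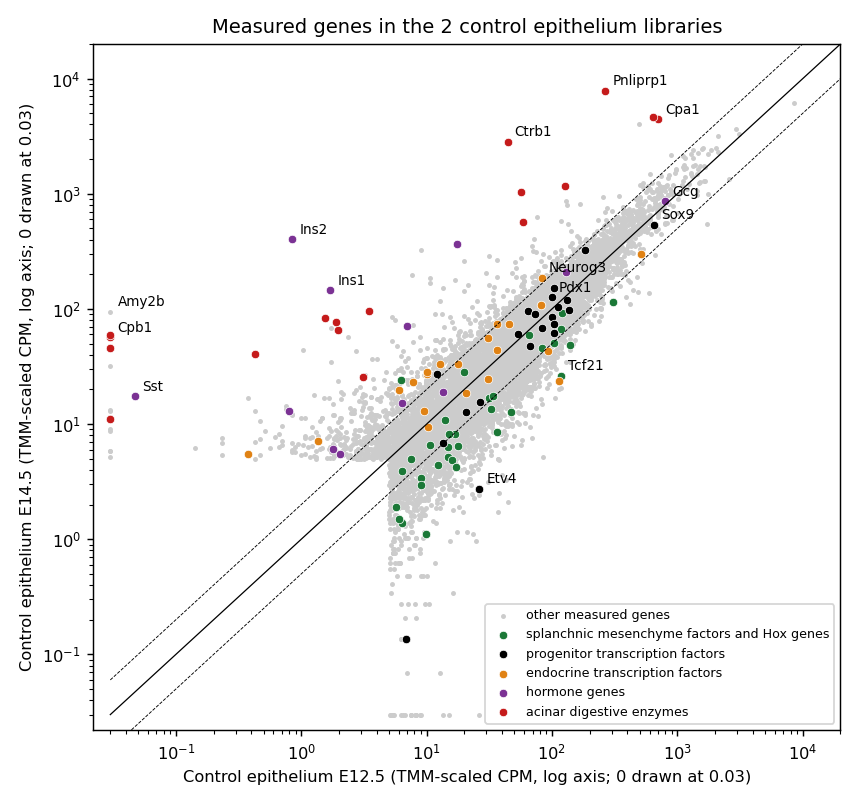
Level of each measured gene in the control epithelium at E12.5 (x axis) and E14.5 (y axis), in TMM-scaled CPM on log axes, 1 library per axis and 1 point per gene. The solid line marks equal levels and the dashed lines 2-fold; the enzyme genes lie above the upper line, and the splanchnic mesenchyme factors and Hox genes lie mostly below the solid line.

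The digestive enzymes had the highest median of the lists. All 17 measured enzyme genes were called higher. Their median log2 ratio was 5.06, against -0.03 over all genes. The list had 25 members. Of the 17 measured, 7 reached 5 CPM at E12.5, and the other 10 entered only through their E14.5 level and so had to differ, while 8 stayed below 5 CPM at both stages. The whole list summed to 1908 CPM at E12.5 and 23116 CPM at E14.5, or 0.2% and 2.18% of all counts. The labelled mutant pair, with no library in common, went from 1721 to 5412 CPM, and 10 of its 11 measured enzyme genes were called higher, with a median of 2.60 where the control pair had 4.78 over those 11.

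The 4 enzyme promoters shown here are those, among the 12 measured enzyme genes with an entry in the RefSeq promoter table (GRCm38.p6, the assembly of mm10), that hold letters of both binding sites of the Ptf1a complex in the 250 bases before the start. Both strands were searched for CACCTG, an E-box that Ptf1a with its partner can bind, and TGGGAA, the site of its Rbpjl part. Neither motif contains the other. Capitals mark the matches, and CAGGTG is CACCTG on the other strand. The windows are chr2:28563404-28563653 (minus strand) for Cel, chr6:41521526-41521775 (plus) for Prss2, chr4:141826006-141826255 (minus) for Cela2a and chr6:41458680-41458929 (plus) for Prss1, each printed 5′ to 3′ along the gene.
Cel: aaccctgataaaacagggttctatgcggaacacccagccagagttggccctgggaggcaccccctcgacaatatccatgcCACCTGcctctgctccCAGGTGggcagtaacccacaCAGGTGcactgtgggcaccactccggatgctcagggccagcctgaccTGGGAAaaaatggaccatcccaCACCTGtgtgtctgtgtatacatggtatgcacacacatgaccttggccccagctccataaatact
Prss2: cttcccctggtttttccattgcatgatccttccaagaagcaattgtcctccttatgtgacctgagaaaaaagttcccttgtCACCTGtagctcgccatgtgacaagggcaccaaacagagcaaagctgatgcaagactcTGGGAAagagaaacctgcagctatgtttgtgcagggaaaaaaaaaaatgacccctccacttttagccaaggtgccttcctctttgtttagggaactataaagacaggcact
Cela2a: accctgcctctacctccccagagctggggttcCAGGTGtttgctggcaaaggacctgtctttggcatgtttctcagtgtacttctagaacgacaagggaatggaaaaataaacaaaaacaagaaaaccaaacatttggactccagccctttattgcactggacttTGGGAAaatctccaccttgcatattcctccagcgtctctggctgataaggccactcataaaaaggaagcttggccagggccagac
Prss1: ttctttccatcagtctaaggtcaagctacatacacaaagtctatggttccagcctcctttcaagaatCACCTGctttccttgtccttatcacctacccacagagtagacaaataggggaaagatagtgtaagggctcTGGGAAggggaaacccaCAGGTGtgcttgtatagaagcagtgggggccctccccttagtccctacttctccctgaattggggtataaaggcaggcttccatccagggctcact
In these windows the Cel promoter has 4 CACCTG matches, Prss1 has 2, and Prss2 and Cela2a have 1 each. TGGGAA begins 87 bases before the start in Cel, 85 in Cela2a, 111 in Prss2 and 113 in Prss1. Over the 12 enzyme promoters, CACCTG was in 75% and TGGGAA in 58.3%, against 17.2% and 21.6% of the 32851 promoters in the table, and both were in 33.3% against 3.91%. Pnliprp1, Cpa1 and Ctrb1 hold TGGGAA without CACCTG in this window, and Cela1, Cela3b, Cpb1, Pnliprp2 and Prss3 hold CACCTG without TGGGAA. The E-box CAGATG was in 0 of the 12 and in 14.4% of all promoters. Among promoters of all genes called higher, CACCTG was in 24.6% and TGGGAA in 24.9%, and of those called lower in 14.4% and 23.1%. A match describes letters and is no measure of binding.

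The lipase relative Pnliprp1 was at 266 CPM at E12.5 and 7850 CPM at E14.5, 29.5-fold higher (28.7 to 30.3). Ctrb1, a chymotrypsinogen, went from 44.2 to 2845 CPM, 64.4-fold (60.4 to 68.8). Per kilobase of merged exons (all annotated exons of a gene, not 1 transcript) they ranked 1 and 2 in the E14.5 library, at 3531 and 3240 CPM per kb. At E12.5 they had ranked 346 and 1089. The carboxypeptidase Cpa1 was already abundant at the earlier stage. It went from 700 to 4464 CPM, 6.38-fold (6.26 to 6.49). Cpa1 ranked 36 per kilobase at E12.5 and 3 at E14.5, so it changed least in rank among the 3. Cel, the bile-salt lipase whose promoter is printed above, went from 56.8 to 1040 CPM (18.3-fold, 17.3 to 19.4), colipase (Clps) from 126 to 1166 CPM, and the elastase Cela1 from 58.7 to 572 CPM. In mm10, Pnliprp1 lies at chr19:58728887-58744169, Ctrb1 at chr8:111686519-111691010 and Cpa1 at chr6:30639218-30645363.

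A further set of enzymes had no read at E12.5. The amylase entry Amy2b was at 94.6 CPM at E14.5, at least 544-fold higher by its interval, and 669-fold against a floor of 3 counts at E12.5. The trypsinogen Try10 reached 59.8 CPM (at least 343-fold, and 423-fold against the floor), the carboxypeptidase Cpb1 57.1 CPM (at least 328-fold, and 404-fold) and Prss1 45.4 CPM (at least 261-fold, and 321-fold). Trypsinogens and amylases exist in near-identical copies, so how reads fell among Prss1, Prss2, Prss3, Try5, Try10 and the amylase entries is uncertain. Among the elastases, Cela3b stood at 0.424 and 40.8 CPM and Cela2a at 1.55 and 83.9 CPM. The 10 enzymes that entered through E14.5 thus ranged from no read to 3.49 CPM (Prss2) at E12.5, whereas Cpa1, Pnliprp1 and Clps were each at 126 CPM or above. Within the labelled mutant pair Amy2b was also without a read at E12.5 and stood at 29.4 CPM at E14.5, while Try10 and Prss1 stood at 0.215 and 0.575 CPM.

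Of 12 measured genes of the zymogen granule and its release 10 were called higher, with a median of 2.56. Only 9 of the 12 reached 5 CPM at E12.5, and the rest entered through E14.5 and could be called only higher. The protease inhibitor Serpini2 went from 9.09 to 327 CPM (36-fold, 31.2 to 41.8), the pancreatic disulphide isomerase Pdia2 from 1.04 to 44.4 CPM (42.8-fold, 28 to 68.8) and the trypsin inhibitor Spink3 from 10.6 to 186 CPM (17.7-fold, 15.4 to 20.3). Cckar, the cholecystokinin receptor through which acinar secretion is stimulated, was already at 119 CPM and reached 585 CPM (4.92-fold, 4.71 to 5.15). The water channel Aqp8 was at 0 and 11.6 CPM (at least 65.9-fold by its interval, 81.9-fold against the floor). Vamp8, a protein of granule fusion, was at 78.9 and 122 CPM and was not called.

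Of the 6 acinar transcription factors 5 were called higher, with a median of 1.69. Bhlha15 (Mist1), which matures the secretory apparatus, was at 7.58 and 199 CPM (26.2-fold, 22.3 to 30.9). Rbpjl, the adult partner of Ptf1a, was at 70.3 and 317 CPM (4.5-fold, 4.25 to 4.78), and Ptf1a itself at 51.3 and 189 CPM (3.68-fold, 3.43 to 3.95). Xbp1, a driver of secretory capacity, was at 342 and 964 CPM (2.82-fold, 2.74 to 2.9) and Gata4 at 74.1 and 195 CPM (2.63-fold, 2.48 to 2.8). Nr5a2, at 23.4 and 27.2 CPM, was not called. The median of the same 6 in the labelled mutant pair was 0.31 and Bhlha15 was the only one called, with Rbpjl at 46.4 and 50.8 CPM. The difference between the pairs was not tested.

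**Figure D2:**
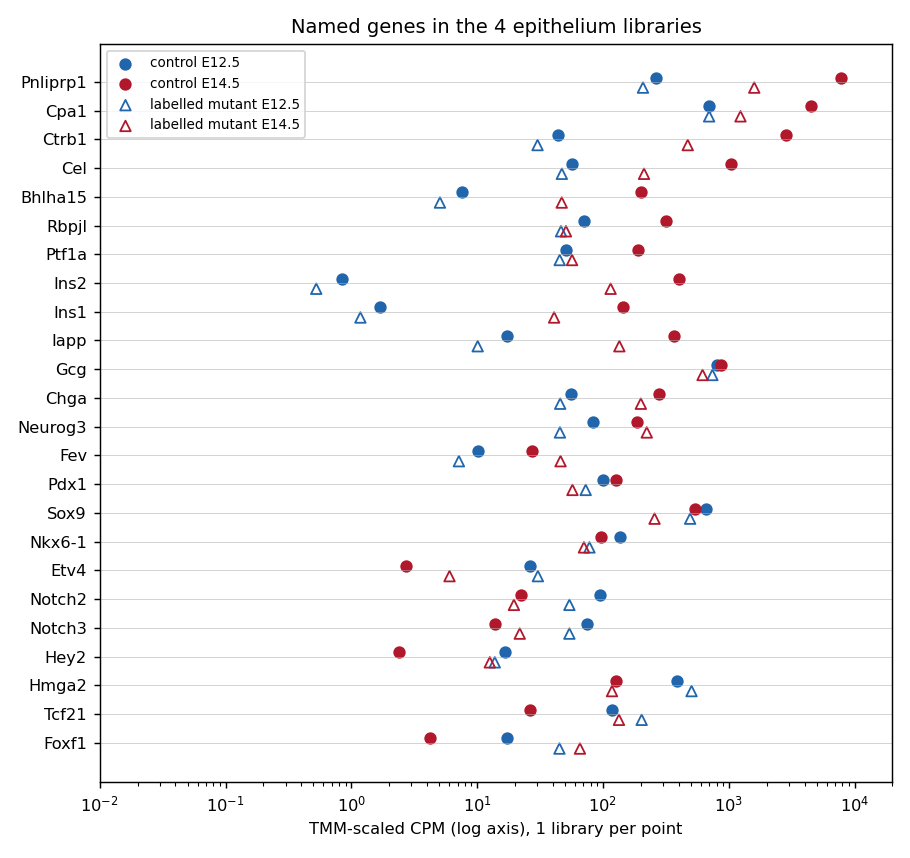
Levels of named genes in the 4 epithelium libraries, in TMM-scaled CPM on a log axis, 1 library per point; circles are the control pair, triangles the labelled mutant pair, blue E12.5 and red E14.5. The control E14.5 circles of the acinar genes lie above the other 3 points of the same gene, for instance Pnliprp1 at 7850 CPM against 1594 CPM in the labelled mutant at E14.5.

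In the machinery of protein secretion most genes were not called. Of 26 chaperone and unfolded protein response genes of the endoplasmic reticulum 9 were called higher and 0 lower (median 0.65), and the list summed to 7703 and 13181 CPM. Sdf2l1, a chaperone cofactor, was at 50.9 and 258 CPM (5.06-fold, 4.73 to 5.42). Edem2 and Edem1, which send misfolded glycoproteins to degradation, were at 71.9 and 402 CPM (5.59-fold, 5.29 to 5.92) and at 81.2 and 262 CPM (3.23-fold, 3.05 to 3.42). The abundant chaperone Hspa5 (BiP) was at 1336 and 2380 CPM, 1.78-fold (1.75 to 1.81), and was not called. Of 29 genes of translocation into the endoplasmic reticulum 9 were called higher (median 0.82), all by less than 3-fold, with Ssr4 at 69.4 and 191 CPM (2.76-fold, 2.59 to 2.94). Relative to the general epithelial genes 0 of the 29 translocation genes were called (median 0.25), and of the 26 chaperone genes 5 were called higher and 1 lower (median 0.08). In the labelled mutant pair 0 of the 29 were called, and 0 of the 26 were called higher.

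Amino acid supply genes followed with 5 of 21 called higher and 0 lower (median 0.66). Relative to the general epithelial genes 3 were called higher and 2 lower (median 0.09). Asns, asparagine synthetase, was at 36.5 and 264 CPM (7.21-fold, 6.67 to 7.8), and Cbs, which feeds cysteine synthesis, at 29.8 and 206 CPM (6.91-fold, 6.34 to 7.54). Psat1 of serine synthesis was at 52.0 and 227 CPM (4.37-fold, 4.08 to 4.68), while Phgdh, which acts just before it, stood at 631 and 1229 CPM and was not called. Of 23 glycolysis and hypoxia response genes 6 were called higher and 0 lower (median 0.66). On the general epithelial reference 2 were called higher and 1 lower (median 0.09). Car9, a carbonic anhydrase that hypoxia induces, was at 13.5 and 152 CPM (11.2-fold, 9.91 to 12.7), and lactate dehydrogenase Ldha at 888 and 2152 CPM (2.42-fold, 2.38 to 2.47). The medians of the last 2 lists in the labelled mutant pair were -0.07 and 0.00.

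The endocrine genes split by hormone. Ins2 was at 0.848 and 405 CPM (477-fold, 302 to 806) and Ins1, its near copy, at 1.7 and 145 CPM. Glucagon (Gcg) was at 802 and 863 CPM, a ratio of 1.08, and was not called. So the 2 libraries differed in insulin and held nearly the same level of Gcg. Per kilobase, Gcg ranked 16 at E12.5 and 43 at E14.5, and Ins2 ranked 12936 and 138. Of 12 measured hormone genes 9 were called higher and 0 lower (median 2.56), but 6 of the 12 reached 5 CPM only at E14.5. Somatostatin (Sst) had 1 count at E12.5 and 256 at E14.5, 0.0471 and 17.5 CPM, a ratio of 372 with an interval from 66.2 to 14762. Amylin (Iapp), which is secreted with insulin, was at 17.4 and 369 CPM (21.2-fold, 19.1 to 23.7), and ghrelin (Ghrl) at 6.97 and 71.2 CPM (10.2-fold, 8.6 to 12.2). Pyy, at 130 and 208 CPM, was not called, and Ppy was at 1.79 and 6.1 CPM. The labelled mutant pair gave Ins2 at 0.526 and 115 CPM and Gcg at 741 and 619 CPM.

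Of 25 genes of the secretory granule and hormone processing 16 were called higher and 0 lower (median 1.28). Of these 25, 22 reached 5 CPM at E12.5, and the rest could be called only higher. Relative to the general epithelial genes 7 were called higher and 1 lower (median 0.71). Chromogranins A and B (Chga and Chgb), the matrix of the granule, were at 56.1 and 279 CPM (4.97-fold, 4.66 to 5.31) and at 142 and 476 CPM (3.36-fold, 3.22 to 3.51). Secretagogin (Scgn), a calcium sensor, was at 7.82 and 72.0 CPM (9.21-fold, 7.81 to 10.9). The convertase Pcsk2, which cuts prohormones, was at 30.1 and 94.5 CPM. Slc30a8, the zinc transporter of the insulin granule, had no read at E12.5 and stood at 8.7 CPM at E14.5 (at least 49.3-fold by its interval, 61.6-fold against the floor). The genes by which beta cells sense glucose did not move as a group: of 9 measured, Ero1lb and G6pc2 were called higher and Slc2a2 lower (median 0.36, or -0.21 relative to the general epithelial genes). Slc2a2, the glucose transporter Glut2 that progenitors also express, was at 60.9 and 12.1 CPM, 5.05-fold lower (4.31 to 5.94).

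Of 21 measured endocrine transcription factors 9 were called higher and 2 lower (median 0.88). Relative to the general epithelial genes 3 were called higher and 3 lower (median 0.30), so the count rests on the scaling. Neurog3, which starts endocrine differentiation, was at 82.8 and 187 CPM (2.26-fold, 2.13 to 2.4). Fev, expressed just after Neurog3, was at 10.1 and 27.5 CPM (2.72-fold, 2.3 to 3.22), and Pax6, a factor of maturing islet cells, at 12.9 and 33.2 CPM (2.58-fold, 2.22 to 3). Mafa, a beta cell factor, was at 0.377 and 5.48 CPM, just above the 5 CPM limit. The early factor Sox11 was at 114 and 23.8 CPM, 4.76-fold lower (4.26 to 5.35). In the labelled mutant pair 12 of 21 were called higher (median 1.57), with Neurog3 at 45.5 and 223 CPM, so this list had the larger ratio in the control pair for 3 of the 20 genes measured in both. TAAT, the core of many homeodomain sites, was in 12 of 17 promoters of endocrine factors (70.6%) and in 54.9% of all promoters. These 17 belong to 13 of the 21 genes. The other endocrine lists lay below the share of all promoters, with 40% for hormone genes and 47.6% for secretory granule genes. So did the genes called higher (44.8%) and lower (38.6%).

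Few progenitor factors were called on the TMM scale. Of 21 measured 1 was called higher and 2 lower (median -0.28), and the list summed to 2178 and 2116 CPM. Relative to the general epithelial genes 9 of the 21 were called lower and 0 higher (median -0.85), so the count rests on the scaling. Pdx1, needed for the organ to form, was at 99.5 and 126 CPM (1.26-fold, 1.19 to 1.35). Sox9, which keeps progenitors and later marks duct, was at 656 and 540 CPM, and Nkx6-1, of the trunk and beta cells, at 136 and 97.2 CPM. None of these 3 was called at the 2-fold limit. The 2 called lower were Onecut3, at 6.83 and 0.137 CPM (49.9-fold, 13.6 to 416), and Etv4, an FGF response gene of the early tips, at 26.2 and 2.74 CPM (9.57-fold, 6.94 to 13.5). For the labelled mutant pair, 8 of the 21 were called lower and 0 higher (median -0.77), with Sox9 at 493 and 257 CPM.

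Among 19 duct and trunk genes 5 were called higher and 0 lower (median 0.69), or 4 higher and 1 lower relative to the general epithelial genes (median 0.12). Clusterin (Clu) was at 130 and 866 CPM (6.66-fold, 6.39 to 6.94), the water channel Aqp1 at 3.82 and 20.5 CPM, and the mucin Muc1 at 59.5 and 193 CPM (3.24-fold, 3.03 to 3.47). Osteopontin (Spp1), the most abundant gene of the list, was at 1287 and 2221 CPM (1.73-fold, 1.7 to 1.75) and was not called. Of 28 general epithelial genes 8 were called higher and 0 lower (median 0.57). They included the keratins Krt8 at 610 and 1479 CPM (2.42-fold, 2.37 to 2.48) and Krt18 at 274 and 755 CPM, and the claudin Cldn3 at 157 and 430 CPM. E-cadherin (Cdh1) at 514 and 628 CPM and Epcam at 508 and 938 CPM were not called. These general genes are shared by all epithelial cells of the bud, and their sum was 4653 and 8331 CPM. Relative to their median ratio, the list medians were 4.49 for the enzymes, 1.99 for the hormone genes and -0.85 for the progenitor factors. The hormone genes did not move alike: Gcg, which was not called, lay below this reference.

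**Figure D3:**
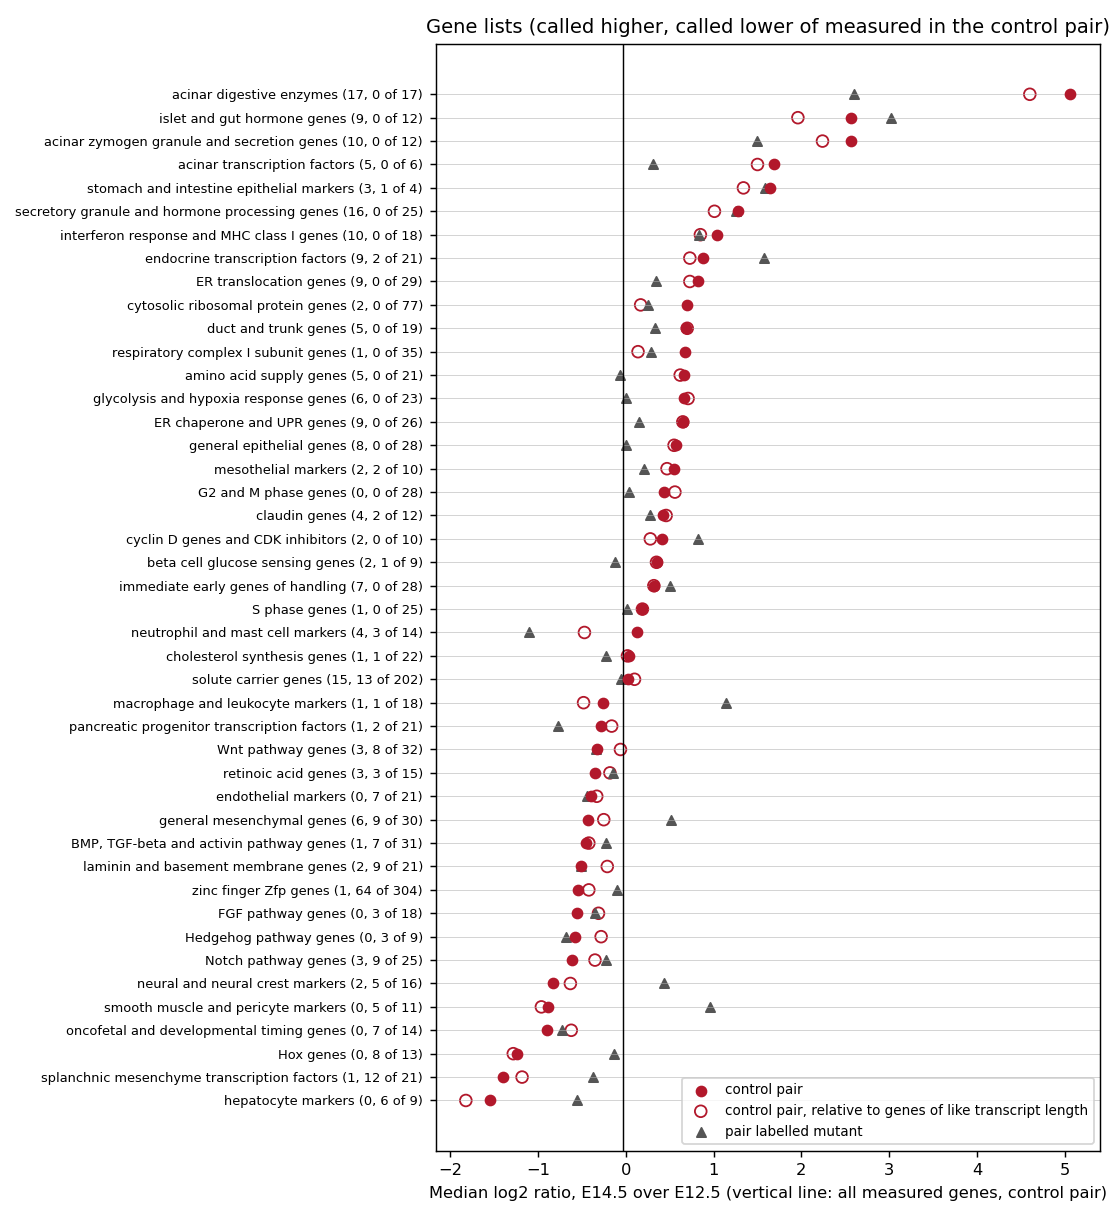
Median log2 ratio, E14.5 over E12.5, of each gene list in the control pair (filled circles), in the control pair relative to genes of like transcript length (open circles) and in the labelled mutant pair (triangles); brackets give how many of the measured members were called higher and lower in the control pair. The acinar enzymes stand at 5.06, and the hepatocyte markers at -1.54.

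Among signalling genes most members were not called. In the Notch, Wnt, FGF, BMP and Hedgehog lists those called were lower more often than higher. This also held over all measured genes, with 11.2% called lower and 6.53% higher. The median transcript lengths of these lists ran from 3849 to 6637 nucleotides, against 3238 over all genes. Longer transcripts were called lower more often, as given below for groups of length. Of 25 Notch pathway genes 9 were called lower and 3 higher (median -0.61). Of the 25, 24 reached 5 CPM at E12.5, 21 at E14.5 and 20 in both. The receptors Notch2 and Notch3 were at 95.4 and 22.5 CPM (4.25-fold lower, 3.78 to 4.79) and at 74.2 and 13.8 CPM (5.36-fold lower, 4.63 to 6.24). The ligand Jag1, which holds trunk cells in the progenitor state, was at 117 and 45.9 CPM (2.54-fold lower, 2.33 to 2.77), while the ligand Jag2 was at 2.07 and 9.45 CPM (4.56-fold higher, 3.23 to 6.56). The target genes Hey1 and Hey2 were at 34.9 and 13.2 CPM and at 16.6 and 2.4 CPM, both called lower. Hes1, the target that represses Neurog3, was at 173 and 242 CPM and was not called, nor was the non-canonical ligand Dlk1 at 2109 and 2308 CPM. Notch3 is also expressed in pericytes, and smooth muscle and pericyte markers summed to 472 and 272 CPM in these libraries; their part in the Notch3 ratio was not tested. In the labelled mutant pair, 6 of 25 Notch genes were called lower, with Notch2 at 54.1 and 19.6 CPM and Hey2 at 13.8 and 12.6 CPM.

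Of 32 Wnt pathway genes 8 were called lower and 3 higher (median -0.33). Of the 32, 31 reached 5 CPM at E12.5, 28 at E14.5 and 27 in both. Without genes that were higher in mesenchyme than epithelium in the mutant embryos at E12.5, 24 Wnt genes were left. Of these 3 were called lower and 2 higher (median -0.17). The part of carried-over mesenchyme in the Wnt ratios was not tested. The ligand Wnt7b was at 155 and 62.8 CPM (2.46-fold lower, 2.29 to 2.65) and Wnt5a at 57.5 and 17.9 CPM (3.21-fold lower, 2.81 to 3.69). The receptor Fzd7 was at 97.0 and 33.8 CPM (2.87-fold lower, 2.6 to 3.17). Among secreted antagonists, Sfrp1 was at 416 and 111 CPM (3.74-fold lower, 3.54 to 3.94), and Frzb and Notum were called higher, at 0.848 and 11.9 CPM and at 9.0 and 30.5 CPM. Of 18 FGF pathway genes 3 were called lower and 0 higher (median -0.56). The ligand Fgf10, which mesenchyme makes for the progenitors, was at 8.01 and 0.274 CPM (29.2-fold lower, 11.2 to 108), and Fgf9 at 30.1 and 7.19 CPM (4.19-fold lower, 3.4 to 5.2). The receptor Fgfr2, at 184 and 94.1 CPM, fell short of the 2-fold limit.

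Of 31 BMP, TGF-beta and activin genes 7 were called lower and 1 higher (median -0.45). Gdf11, known to limit the number of Neurog3 cells, was at 16.6 and 3.29 CPM (5.06-fold lower, 3.73 to 6.99), and Tgfb2 at 54.4 and 12.5 CPM (4.34-fold lower, 3.71 to 5.1). Bmp4 was lower (16.6 and 5.62 CPM) and Bmp2 higher (3.44 and 8.7 CPM). Of 9 Hedgehog genes 3 were called lower, the repressor Gli3 among them at 26.6 and 5.07 CPM (5.24-fold, 4.11 to 6.77). Retinoic acid genes went both ways, 3 higher and 3 lower of 15 (median -0.35): the synthesis enzymes Aldh1a1 and Aldh1a2 were at 3.01 and 11.8 CPM and at 31.2 and 84.0 CPM, and the binding protein Crabp2 at 10.1 and 2.74 CPM. Aldh1a2 is also a mesothelial marker, and mesothelial markers summed to 549 and 658 CPM; their part in it was not tested.

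Of 14 measured oncofetal and developmental timing genes 7 were called lower, 0 higher and 7 neither (median -0.90), and 6 of 13 were lower in the labelled mutant pair. The let-7 target Hmga2 was at 388 and 128 CPM (3.03-fold, 2.88 to 3.18) and the RNA-binding protein Igf2bp1 at 203 and 73.5 CPM (2.76-fold, 2.58 to 2.95). The let-7 pathway protein Trim71 was at 7.87 and 1.58 CPM. The imprinted genes Peg3, at 1713 and 544 CPM (3.15-fold, 3.07 to 3.23), and Plagl1, at 404 and 179 CPM, were also lower. Igf2, at 990 and 685 CPM, and H19, at 419 and 595 CPM, were not called. Proliferation genes showed little difference at this rule: 1 of 25 S phase genes and 0 of 28 G2 and M phase genes were called, with medians of 0.19 and 0.43, and Mki67 was at 174 and 227 CPM. Relative to the general epithelial genes those medians were -0.38 and -0.14, so their direction rests on the scaling. The CDK inhibitor Cdkn1c (p57), of cells that leave the cycle, was at 1636 and 1298 CPM and was not called.

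Interferon response and MHC class I genes were higher for 10 of 18 and lower for 0 (median 1.04), with Ifitm3 at 47.8 and 204 CPM (4.26-fold, 3.97 to 4.58) and the class I gene H2-K1 at 31.6 and 107 CPM (3.4-fold, 3.1 to 3.72). Of the 18, 15 reached 5 CPM at E12.5, and the rest could be called only higher. Relative to the general epithelial genes 4 were called higher and 2 lower (median 0.47). In the labelled mutant pair 6 of 18 were higher (median 0.83). Immediate early genes, which tissue handling induces, were higher for 7 of 28 and lower for 0 (median 0.32, or -0.25 relative to the general epithelial genes), with Egr1 at 302 and 702 CPM and Jun at 715 and 722 CPM. How far handling differed between the pools was not tested.

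The stage ratio moved with transcript length over the whole table, and this touches every list. Across 12087 genes with a GENCODE length, the log2 ratio and the length had a Spearman correlation of -0.47, given as a description, since genes share the 2 libraries. The median ratio was 0.55 in the shortest of 10 equal groups by transcript length (median 1025 nucleotides) and -0.65 in the longest group (8339 nucleotides). Of the longest group 29.4% were called lower and 1.57% higher, and of the shortest 2.48% were called lower. Genes called higher had a median length of 2204 nucleotides and those called lower 4845. The trend was present between the 2 E12.5 epithelium libraries (labelled mutant over control, -0.33) and in the labelled mutant pair (-0.34), and was 0.02 between the 2 E14.5 epithelium libraries. At E12.5 the correlation was 0.06 for control mesenchyme over control epithelium and 0.08 for mutant mesenchyme over the epithelium labelled mutant. A scale on which each ratio is taken relative to genes of like length, added after the trend was seen, called 6.19% of genes higher and 8.42% lower. Of the 792 genes called higher 582 were called higher on it too, and of the 1355 lower 891. Fragmentation of RNA, the chemistry of the libraries and regulation that depends on length were not measured here, and their part was not tested.

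**Figure D4:**
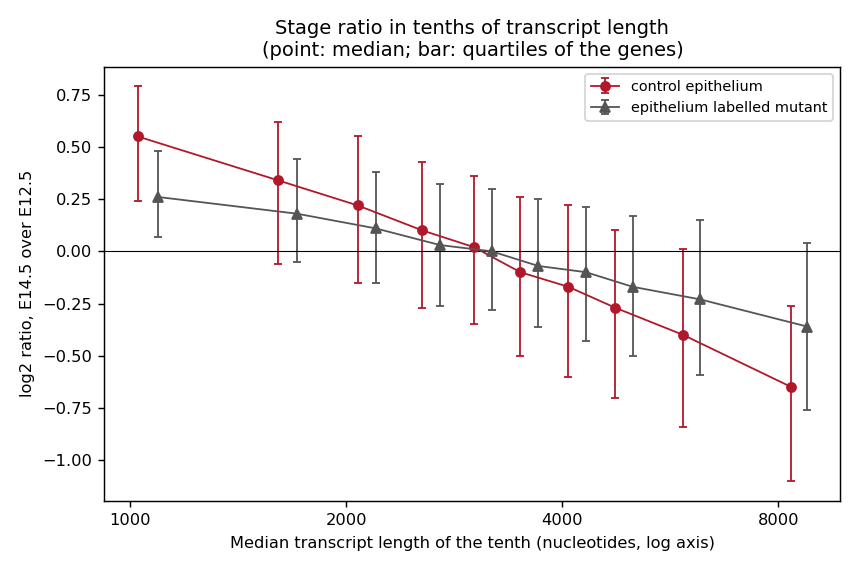
Log2 ratio, E14.5 over E12.5, in 10 groups of transcript length (x axis in nucleotides, log scale); points are medians and bars the quartiles of the genes, circles the control pair and triangles the labelled mutant pair, which are drawn slightly to the right. The control medians run from 0.55 in the shortest group to -0.65 in the longest.

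On the length-relative scale the acinar enzymes kept 17 of 17 called (median 4.60), the acinar factors 5 of 6 (1.5) and the granule genes of endocrine cells 15 of 25 (1.01). Neurog3 had a log2 ratio of 1.18 on the first scale and was not called on the second. The endoplasmic reticulum translocation genes went from 9 to 3 called and the general epithelial genes from 8 to 2, though their medians stayed at 0.73 and 0.55. Notch2 and Notch3 were called lower on both scales, while Jag1 fell just short on the second. Of the Wnt genes 6 were then lower and 4 higher (median -0.06), of the laminin and basement membrane genes 4 lower in place of 9, and of the timing genes 4 in place of 7. Cytosolic ribosomal protein genes, a family taken by symbol after the data were seen, are short: their median over 77 genes was 0.70 on the first scale and 0.17 on the second, with 2 and 0 called.

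Markers of mesenchyme were present in both epithelium libraries. General mesenchymal genes summed to 6699 CPM at E12.5 and 6959 CPM at E14.5, beside 13547 CPM in the E12.5 control mesenchyme, and general epithelial genes to 4653 and 8331 CPM beside 151 CPM. Of 30 measured general mesenchymal genes 9 were called lower and 6 higher (median -0.43), so this list went both ways. Collagens Col1a1 and Col3a1 were at 1142 and 1398 CPM and at 1506 and 1757 CPM, and were not called. The proteoglycan Lum was at 15.5 and 84.3 CPM (5.44-fold higher, 4.81 to 6.16), as Dcn was higher (88.7 and 234 CPM), while fibronectin (Fn1) was at 129 and 34.7 CPM, N-cadherin (Cdh2) at 82.5 and 14.9 CPM, and tenascin C (Tnc) at 26 and 0 CPM, at least 103-fold lower by its interval and 127-fold against the floor.

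Position and identity factors of the surrounding mesenchyme were also measured. Of 21 splanchnic mesenchyme factors 12 were called lower and 1 higher (median -1.40), and of 13 Hox genes 8 lower and 0 higher (median -1.24). Of these, 5 of the 21 factors and 6 of the 13 Hox genes reached 5 CPM only at E12.5, so that they could enter the count only as lower, and the counts and medians are a description. Tcf21 was at 117 and 26.4 CPM (4.43-fold, 3.98 to 4.94), Hand1 at 9.89 and 1.1 CPM and Foxf1 at 17.2 and 4.25 CPM (4.06-fold, 3.09 to 5.4). Osr2 was the 1 called higher (6.22 and 24.2 CPM). The Hox list summed to 202 and 93.3 CPM, and to 631 CPM in control mesenchyme. In the labelled mutant pair Foxf1 was at 45.1 and 65.6 CPM and the Hox median was -0.13. Genes higher in mesenchyme than epithelium in the mutant embryos at E12.5, a comparison that shares no library with the control pair and called 5.42% of genes higher and 12.9% lower, made up 15.7% of the genes called lower at E14.5 and 1.52% of those called higher, against 4.04% of all measured. Genes lower in that mesenchyme made up 36.2% of those called higher and 13.8% of those called lower. Without the mesenchyme-higher genes the calls were 780 higher and 1142 lower. The part that a change in carried-over mesenchyme has in Fgf10, Notch3, Hey2 and the other lower genes was not tested.

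**Figure D5:**
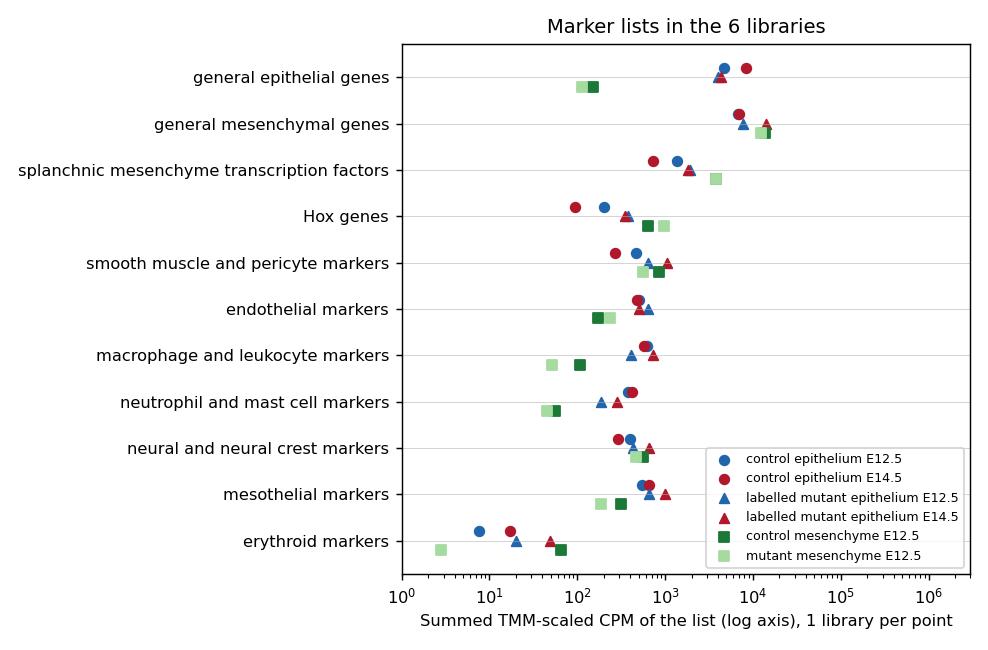
Summed level of marker lists in the 6 libraries, in TMM-scaled CPM on a log axis, 1 library per point; blue and red circles are the control epithelium at E12.5 and E14.5. In the control pair the splanchnic factors went from 1372 to 736 CPM and the Hox genes from 202 to 93.3 CPM, while the general mesenchymal genes stood at 6699 and 6959 CPM.

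Other cell types were also carried. Endothelial markers summed to 510 and 482 CPM with 7 of 21 called lower (Tie1 at 35.4 and 16.7 CPM), and macrophage and leukocyte markers to 626 and 578 CPM with 1 higher and 1 lower of 18. Of 14 neutrophil and mast cell markers 4 were called higher, 3 lower and 7 neither (median 0.13, or -0.47 relative to genes of like length). The mast cell granule genes Tpsb2, Cma1 and Cpa3 were among the higher, with Tpsb2 at 0 and 32.1 CPM (at least 184-fold by its interval, 227-fold against the floor), Cma1 at 3.72 and 24.4 CPM and Cpa3 at 15.3 and 50.1 CPM. Mmp9 and Mmp8, proteases of neutrophils, and Prtn3, of their granules, were called lower, with Mmp9 at 21.1 and 3.15 CPM (6.71-fold, 4.95 to 9.3). Mpo, also of neutrophil granules, was the other gene called higher, and Ltf and Ngp were not called. The neutrophil genes thus did not move alike. Tpsb2 in the labelled mutant pair was at 0 and 48.5 CPM. Neural and neural crest markers summed to 395 and 287 CPM, with 5 of 16 called lower and 2 higher (median -0.83). Of 12 erythroid markers 1 was measured. Hepatocyte secreted genes were called lower for 6 of 9 (median -1.54), and 3 of the 9 reached 5 CPM only at E12.5 and so could only be lower. The 6 were Fgg, Trf, Serpina1a, Serpina1b, Serpina1d and Serpina1e. The Serpina1 genes are a cluster of near-identical copies among which reads may be split, so they are not separate observations. Another copy, Serpina1c, was not called. The fibrinogen gene Fgg was at 13.5 and 0 CPM (at least 53-fold lower by its interval, 65.6-fold against the floor), and the list still summed to 1050 and 1063 CPM, most of it Ambp at 670 and 893 CPM, which was not called.

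Basement membrane genes and their receptors showed 9 of 21 lower and 2 higher (median -0.51). The perlecan gene Hspg2 was at 52.4 and 15.8 CPM (3.31-fold lower, 2.87 to 3.83) and the laminin Lama1 at 45.1 and 15.8 CPM. Itga6, an integrin chain that binds laminin, was at 107 and 264 CPM (2.47-fold higher, 2.34 to 2.6). The largest other decreases by the interval bound nearer to 1 included Sez6 (37.3 and 1.71 CPM, 21.8-fold, 14.6 to 33.9) and Scube3 (44.2 and 2.12 CPM, 20.8-fold, 14.6 to 30.8). Both were lower in the labelled mutant pair too, with log2 ratios of -2.68 and -1.89.

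Set beside the labelled mutant pair, which called 6.27% of its genes higher and 5.89% lower, the control calls were shared in part. Of the 792 control genes higher 681 were measured there, of which 253 were higher, 13 lower and 415 neither; the 253 are 31.9% of the control calls and 33.2% of the mutant pair's. Of the 1355 lower 1262 were measured, 282 lower, 34 higher and 946 neither, which is 20.8% and 39.3%. The difference between the pairs has no replicate and was not tested.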

How the data were processed

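Raw read counts per gene symbol, 1 table a library, were deposited by the authors. Per the file names the counts were deduplicated, which lowers very abundant genes. Per the submitters' processing notes the assembly was mm10 and the tools included Cufflinks 2.2.1 and Cuffdiff 2.2.1. Aligner, counter, annotation and strand use: not given in the sources used here. Overlapping and antisense genes are therefore uncertain. The 5 summary lines were left out of totals: 4.69% to 8.84% of reads fell on no gene, 1.53% to 1.72% were ambiguous and 13.72% to 20.05% were not unique. Mitochondrially encoded genes were not analysed here.

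Counts were scaled with TMM over all 6 libraries (edgeR 4.0.16, R 4.3.3; control factors 1.04714 and 0.94105). Log2 ratios carry exact (Clopper-Pearson) 95% intervals from the conditional binomial distribution. With 1 pool a side the intervals cover counting error only, and a floor of 3 counts stands in for 0 in a ratio. Whether molecular identifiers marked separate molecules is not given in the sources used here. Other work used Python 3.11.15 with scipy 1.17.1, pandas 2.3.3, matplotlib 3.10.9 and numpy 2.4.6. Tested on simulated counts for this comparison (11793 genes in the step), the rule called 100% of genes moved by 1.5 on the log2 scale, 100% of genes moved by 3 and 0% of the rest. The simulated counts carried Poisson counting error only, without a difference between pools or a length trend, and the moved genes averaged 10 CPM or more. The 0% is therefore no error rate for the real pools.

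Positions and lengths came from GENCODE M21, promoters from RefSeq. The members, lists, thresholds and alternatives were chosen with earlier results of these data known. Named genes were the 20 higher and 20 lower at 10 CPM or more with the largest ratio by the interval bound nearer to 1. Unnamed models, genes of the Y chromosome and Xist were left out there, while other X-linked genes were kept. Up to 8 called and 3 uncalled members of each list, and a short fixed set, were also named. Not all are printed; a few of them are not reported here. Amy2b is named through its ratio and is not on the enzyme list; Clps, Cel, Cela1, Pnliprp2 and Prss2 were chosen from their list after their values were seen. Alternatives were DESeq2 1.42.0 size factors, plain CPM, TMM over the pair, a general epithelial reference, other CPM filters, 1.5-fold and 4-fold thresholds, thinning, and removal of mesenchyme-higher genes; the length-relative scale was added after seeing the data.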

Additional observations from a re-analysis of the deposited data

Results flagged for a closer look

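Some genes were called in opposite directions in the control pair and the labelled mutant pair, which share no library; with 1 pool a group the differences were not tested. The smooth muscle kinase Mylk had a log2 ratio of -1.11 in the control pair and 1.77 in the labelled mutant pair, and the actin-binding gene Synpo2 of -1.99 and 1.02. The smooth muscle and pericyte markers as a list had medians of -0.89 and 0.96. Serpina1e, one of a cluster of near-identical protease inhibitor genes whose reads may be split among copies, had -2.28 and 7.07.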

How the results depend on the processing

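With 1 pool a side, a difference between pools cannot be told apart from stage, and the length trend and the E12.5 table's name touch all results. Under the 5 other scalings run for single genes, 0 of the 245 named genes that were called changed sign, while 41 of the 108 that were not called changed sign in at least 1, among them 35 relative to the general epithelial genes. A called gene was at least 2-fold from 1, and the largest shift among scalings that move all genes alike was -0.57 (log2). Medians of the length groups ran from 0.55 to -0.65. A sign change of a called gene was thus hardly possible, and the 0 is no check on the calls. Of 39 list medians 28 kept their sign in every alternative computed for them. The calls, 792 higher and 1355 lower, became 338 and 3495 relative to the general epithelial genes, 1403 and 2080 at 1 CPM, 495 and 709 at 20 CPM, 1733 and 2491 with no filter, 2059 and 2753 at 1.5-fold, and 216 and 282 at 4-fold. They were 832 and 1276 with DESeq2 size factors, 815 and 1302 with TMM over the pair, 573 and 1786 with plain CPM and 785 and 1344 after thinning. List medians changed sign as follows. Plain CPM gave -0.12 for cholesterol synthesis and -0.03 for neutrophil and mast cell markers. The general epithelial reference gave -0.21 for glucose sensing, -0.38 for S phase, -0.14 for G2 and M phase, -0.17 for cyclin D genes and CDK inhibitors, -0.53 for cholesterol synthesis, -0.25 for immediate early genes, -0.44 for neutrophil and mast cell markers and -0.02 for mesothelial markers. The 20 CPM filter gave 0.14 for retinoic acid and 0.04 for macrophage markers, and no filter -0.04 for stomach and intestine markers. The length-relative scale gave -0.47 for neutrophil and mast cell markers. Apart from these shifts the cause was not tested. No paired analysis was possible because each group has 1 library.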

Other observations

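Families were also taken by gene symbol after the data were seen. Beside them, 6.53% of all measured genes were called higher and 11.2% lower (median log2 ratio -0.03). Of 304 measured zinc finger genes named Zfp, many of them repressors of transcription, 64 were called lower at E14.5 and 1 higher (median log2 ratio -0.54, and -0.42 relative to genes of like length); the labelled mutant pair had 19 lower and 9 higher of 304 (median -0.10). Of 35 respiratory complex I subunit genes 1 was called higher (median 0.68, and 0.14 relative to genes of like length). Solute carriers went both ways, with 15 of 202 higher and 13 lower (median 0.03), and of 12 claudins 4 were higher and 2 lower.

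Markers of neighbouring gut were low. Of 21 stomach and intestine epithelial markers 4 were measured, with the brush border gene Vil1 at 4.99 and 12.5 CPM and the stem cell marker Olfm4 at 19.3 and 7.74 CPM, and the list summed to 30.8 and 39.4 CPM. Cholesterol synthesis genes had 1 of 22 higher and 1 lower (median 0.04, and -0.12 with plain CPM).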
